A study of Mus musculus with 18 samples.

Results

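Motile cilium genes encode the beating apparatus of multiciliated cells and the factors that switch it on. The 49 genes described here were taken by symbol from a list of axonemal and multiciliation genes, out of 54838 genes in a table of RNA sequencing counts. The cells were neural stem cells from the ventricular zone of wild-type C57BL/6J mouse embryos at embryonic day 14, each culture being started from a single brain. They were grown as neurospheres (NSPs) in EGF, and were turned into astrocytes by replacing that medium with one containing 10% fetal bovine serum. The 6 conditions were proliferating NSPs without serum, untreated cells after 24 h, 72 h and 1 week in serum, and cells that spent 24 h or 72 h in serum together with TNF at 50 ng/ml. Each condition had 3 libraries, and no genetic change was made in any of them. The study's methods speak in general terms of independent biological experiments, but the labels do not say whether these replicates came from separate brains or cultures. The p-values may therefore measure only the spread between these libraries, which may be technical.

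A motile cilium has an axoneme in which outer microtubule doublets surround a central pair of microtubules. Dynein arms on the doublets slide them past each other, radial spokes and the nexin-dynein regulatory complex convert the sliding into a beat, and a separate set of cytoplasmic factors assembles the dyneins beforehand. In the brain this structure is found on ependymal cells, which line the ventricles and arise from the same radial glia as astrocytes. Gmnc and Mcidas start the multiciliation programme and centriole amplification, and Foxj1 and the RFX factors switch on the genes of the axoneme.

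Library depth ranged from 12509693 to 22549627 counts with a median of 16794798, and 20067 genes passed the filter on low counts. All 9 astrocyte markers had a mean of at least 1 CPM (counts scaled by library size to a common total) in every condition, NSPs included. They summed to 4011 to 4268 CPM in NSPs, 5809 to 7938 CPM at 72 h and 3466 to 3553 CPM at 1 week. Against NSPs, 4 of the 9 were higher and 2 lower at 72 h, and 2 were higher and 4 lower at 1 week, by the test given below. Gfap, the intermediate filament protein of astrocytes, was at 1852 to 3168 CPM at 72 h and only 52.6 to 81.5 CPM at 1 week. Among the libraries, 24 h TNF replicate 1 stood apart for the cilium genes. It had the highest value of its 3 replicates for 28 of the 39 members that could be tested, against 40.4% of all tested genes, and its median log2 difference from the other two was 0.76 over members and 0.01 over all genes. Gfap in that library was at 1868 CPM, against 462.5 and 595.8 CPM in the other two. 72 h TNF replicate 1 had the lowest value of its 3 replicates for 24 of 39 members, with Gfap at 1020 CPM against 216.7 and 228.8 CPM in the other two, and NSP replicate 1 had the lowest for 26, against 37.4% and 39.4% of all tested genes. RNA quality varied widely between samples according to the labels, which give no value per library.

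Of the 49 members, 39 passed the filter and 10 did not. A member can pass through the condition where it is high, so the counts over these 39 leave out the genes that stayed near 0. Over the untreated series, 26 members rose and 1 fell at 24 h against NSPs (edgeR quasi-likelihood test, adjusted p under 0.05), in a comparison where 27.2% of all tested genes rose and 25.5% fell. At 72 h against NSPs 35 rose and 1 fell, with 28.1% and 27.2% of all genes doing so, and at 1 week 34 rose and 1 fell, with 29.6% and 29.1%. Between 24 h and 72 h 33 members rose and 0 fell, where 12.2% of all genes rose and 12.6% fell. The 6 members not called had log2 fold changes between -0.69 and 0.97. The median log2 fold change of the tested members was 1.30 at 24 h and 3.28 at 72 h against NSPs, beside 0.06 and 0.05 over all genes, and from 24 h to 72 h it was 2.06 beside -0.01. The 3 comparisons with NSPs share the NSP libraries, and without NSP replicate 1 they called 27, 36 and 33 members in either direction. The bulk measurement cannot tell a smaller share of ciliated cells from less RNA per cell.

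**Figure D1:**
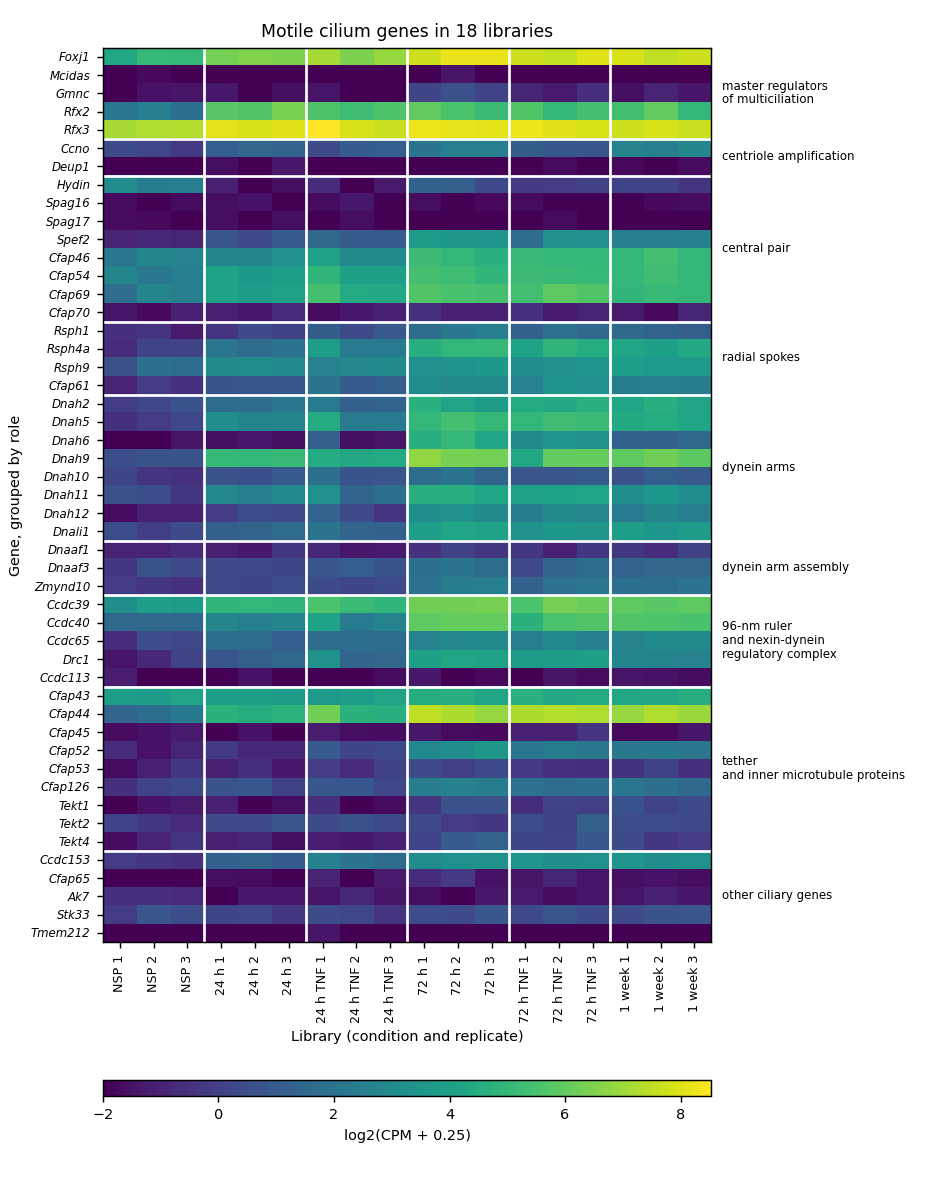
Level of all 49 members in the 18 libraries, as log2(CPM + 0.25) on the colour scale, with genes in rows grouped by role and libraries in columns grouped by condition. Most rows brighten from NSP to 72 h, Hydin is brightest in NSP, and 10 rows, among them Mcidas, Deup1 and Spag17, stay dark throughout.

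Without the 3 broadly expressed or most abundant regulators, Foxj1, Rfx2 and Rfx3, the members summed to between 66.3 and 81.2 CPM in NSPs, between 191.0 and 207.2 CPM at 24 h, between 715.5 and 832.3 CPM at 72 h and between 565.2 and 641.3 CPM at 1 week. The ranges of these 4 conditions did not overlap. The number of members at 1 CPM or more went from 16 to 18 in NSPs to 27 to 29 at 24 h and 35 or 36 at 72 h. Of the 39 tested members, 28 had their highest untreated mean at 72 h, 8 at 1 week (Ccdc153, Ccdc65, Ccno, Cfap46, Dnah2, Rsph9, Stk33 and Tekt1), 2 at 24 h (Rfx2 and Tekt2) and 1 in NSPs (Hydin). NSPs had the lowest mean for 34 of them.

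Among the regulators, 4 of 5 could be tested and all 4 rose between NSPs and 72 h, where 28.1% of all genes rose. Gmnc, 1 of the 4, passed the filter through 72 h alone, so its place in this count was favoured by the filter. Mcidas, the regulator left out, did not pass the filter. Foxj1, the forkhead factor of motile ciliogenesis (ENSMUSG00000034227, chr11:116330704-116335399, minus strand, GRCm38), was at 79.3, 93.3 and 87.6 CPM at 24 h and at 237.7, 185.6 and 211.5 CPM at 1 week, both well above every NSP library. Its rise from 24 h to 72 h was 1.64 on the log2 scale (SE 0.21, adjusted p = 1.303e-05), close in size to its rise of 1.64 (SE 0.21, adjusted p = 4.413e-06) in the first 24 h. Rfx2, a regulatory factor X protein that binds ciliary promoters, followed another course. It was at 4.18, 5.43 and 3.35 CPM in NSPs, at 54.9, 50.8 and 84.8 CPM at 24 h, at 63.3, 46.5 and 36.5 CPM at 72 h and at 40.5, 64.5 and 30.9 CPM at 1 week. Its whole rise, 14.6-fold (log2 3.87, SE 0.31, adjusted p = 1.356e-08), was present at 24 h, and the later conditions overlapped. Rfx3, a second ciliary RFX factor, was already at 142.2, 156.5 and 161.2 CPM in NSPs and rose by 0.74 (log2, SE 0.17, adjusted p = 0.00118) to 274.5, 239.0 and 255.7 CPM at 24 h, with a further difference of 0.17 (SE 0.17, adjusted p = 0.498) at 72 h.

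Gmnc, the geminin family protein at the head of the multiciliation cascade, was measurable mainly at 72 h. It had 4 counts over the 3 NSP libraries, 3 counts at 24 h and 49 counts at 72 h, or 0.91, 1.29 and 0.88 CPM in the 72 h libraries. The ratio of 72 h to 24 h was 14.9 (95% counting interval 4.80 to 74.6). Gmnc was the 1 tested member that passed the filter on low counts through a single condition, untreated 72 h, so its place among the calls that involve 72 h was favoured by that filter and these values are a description. Without a filter on low counts edgeR gave an adjusted p of 8.636e-06 for 72 h against 24 h. All 3 libraries at 72 h lay above every NSP and 24 h library. Mcidas, its relative that acts in the same pathway with E2F factors, had 3 counts in all 18 libraries and was at 0 in 16 of them. A count of 0 allows up to 3 counts in a library, or 0.132 to 0.244 CPM at these depths, and Mcidas never exceeded 0.12 CPM. Thus the 5 regulators ranged at 72 h from 103.2 CPM per kilobase of exon for Foxj1 through 26.2 for Rfx3 and 6.67 for Rfx2 to a Mcidas level that could not be told from 0.

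**Figure D2:**
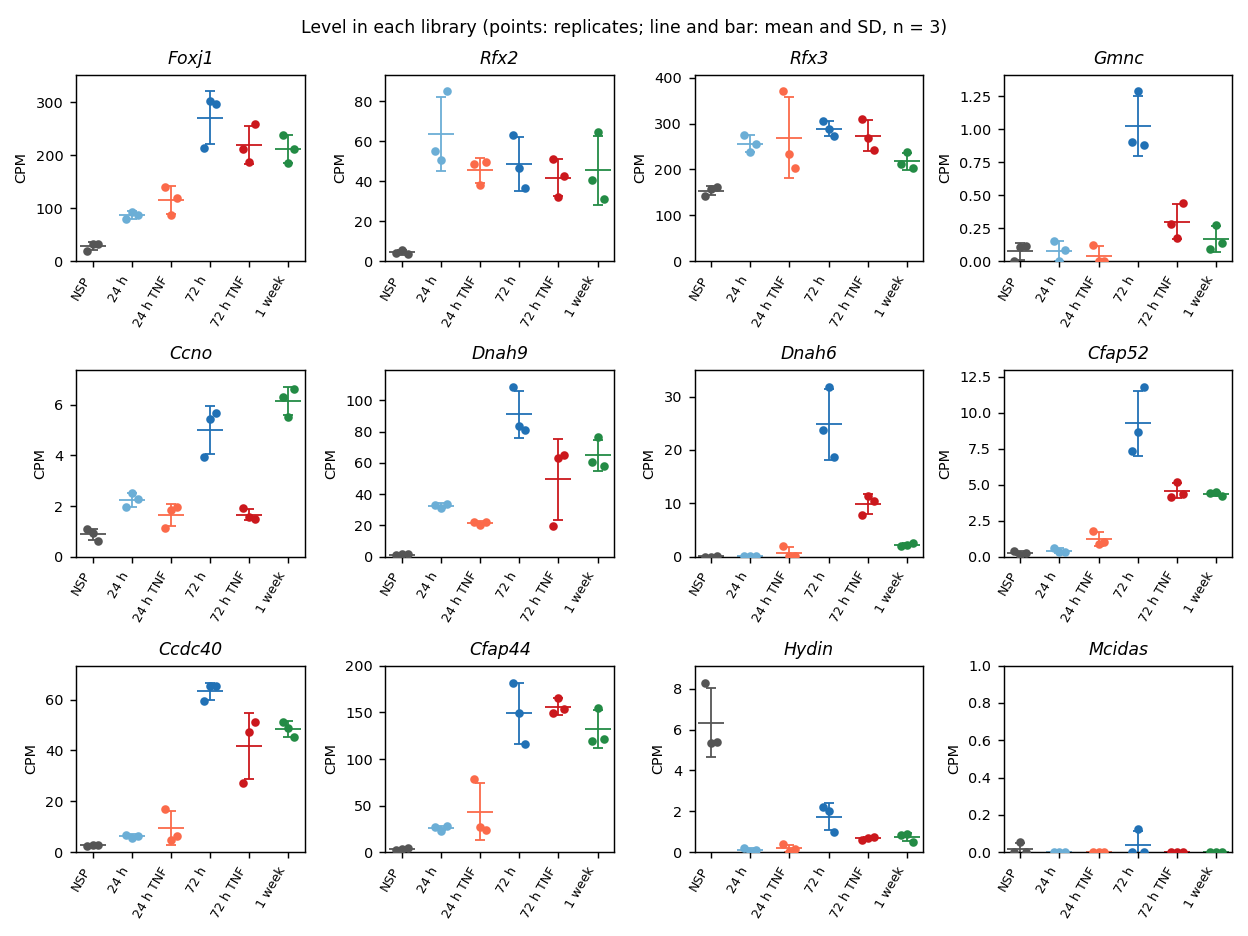
CPM of 12 members in each library, with conditions on the x axis, points for the 3 replicates, and a line and bar for mean and SD. Foxj1, Dnah9, Dnah6, Cfap52, Ccdc40 and Cfap44 are highest or near highest at 72 h, Rfx2 is already up at 24 h, Ccno is higher at 72 h and 1 week than with TNF at 72 h, and Mcidas stays near 0 on an axis that ends at 1 CPM.

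Ccno, a cyclin-like protein needed for the large-scale production of centrioles, rose at both steps. It was at 1.08, 0.93 and 0.63 CPM in NSPs, at 1.962, 2.51 and 2.28 CPM at 24 h, at 3.93, 5.45 and 5.66 CPM at 72 h and at 6.31, 5.53 and 6.61 CPM at 1 week, with no overlap between the first 3 conditions. The rise from 24 h to 72 h was 1.15 (log2, SE 0.24, adjusted p = 0.00172). Deup1, the scaffold of the deuterosome on which those centrioles form, had 6 counts in all 18 libraries and none at 72 h without TNF.

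The start regions of the members were read for RFX motifs because Rfx2 and Rfx3 are themselves members and most members rose together. RefSeq windows on GRCm38.p6 from 250 bases before to 50 bases after a start site were matched for 41 members, in 48 windows. Foxj1, Cfap54, Rsph1, Rsph4a, Dnaaf1, Cfap53, Cfap65 and Stk33 had no window. The RFX half-site GTTGCC, searched on both strands, was in 19 of the 48 windows (39.6%), and in 12.5% of all 32851 windows. A relaxed X-box, GTNNCC and GGNNAC with 0 to 3 bases between them, was in 9 windows (18.8%), and in 3.86% of all windows. The stricter form, GTTNCC and GGNAAC, was in 0 member windows and in 0.804% of all windows. With so low a share over all windows, 0 of 48 does not show that members lack X-boxes. The forkhead letters GTAAACA were in 2 windows (4.17%) and in 3.65% of all windows. The half-site can lie inside an X-box, so these counts overlap. Letters in a window are a description and not a bound site. Of the 5 windows below, 3 belong to axonemal members that rose strongly, and those of Ccno and Mcidas lie close together on chromosome 13 beside genes that behaved differently. Each runs 5′ to 3′ on the gene's strand and shows the bases before the RefSeq start site, without annotated exon bases. The stretch of Tekt1 lies inside the gene as annotated in GENCODE M21 (chr11:72344722-72362442), which starts further upstream. Capitals mark the half-site on whichever strand it was found, or, for Ccno, the relaxed X-box.

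Cfap44, chr16:44394549-44394795, plus strand: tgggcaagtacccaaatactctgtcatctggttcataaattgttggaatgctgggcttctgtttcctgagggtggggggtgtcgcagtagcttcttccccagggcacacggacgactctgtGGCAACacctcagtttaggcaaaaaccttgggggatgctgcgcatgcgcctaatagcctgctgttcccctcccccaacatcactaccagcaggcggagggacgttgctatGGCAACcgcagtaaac
Drc1, chr5:30281143-30281387, plus strand: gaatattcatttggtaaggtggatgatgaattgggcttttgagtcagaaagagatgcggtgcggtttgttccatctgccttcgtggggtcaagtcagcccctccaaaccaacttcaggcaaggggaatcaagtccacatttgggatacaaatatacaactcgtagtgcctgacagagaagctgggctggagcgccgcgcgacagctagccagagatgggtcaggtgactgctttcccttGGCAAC
Tekt1, chr11:72361883-72362132, minus strand: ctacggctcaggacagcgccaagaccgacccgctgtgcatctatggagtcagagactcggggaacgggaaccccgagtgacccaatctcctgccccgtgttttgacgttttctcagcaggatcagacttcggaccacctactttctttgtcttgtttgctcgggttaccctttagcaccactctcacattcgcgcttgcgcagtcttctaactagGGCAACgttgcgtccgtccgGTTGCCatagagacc
Ccno, chr13:112987552-112987801, plus strand: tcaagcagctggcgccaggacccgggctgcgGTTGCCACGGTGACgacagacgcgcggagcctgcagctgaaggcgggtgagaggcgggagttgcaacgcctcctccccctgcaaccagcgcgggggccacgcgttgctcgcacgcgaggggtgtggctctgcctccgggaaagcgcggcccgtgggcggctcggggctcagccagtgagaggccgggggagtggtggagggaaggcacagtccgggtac
Mcidas, chr13:112993618-112993844, plus strand: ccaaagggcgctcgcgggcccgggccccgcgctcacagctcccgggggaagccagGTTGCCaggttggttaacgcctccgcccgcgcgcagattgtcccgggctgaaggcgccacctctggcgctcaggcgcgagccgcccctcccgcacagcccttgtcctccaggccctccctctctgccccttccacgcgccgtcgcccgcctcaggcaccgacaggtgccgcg

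Cfap44 and Tekt1 each carried 2 half-sites, the nearest 19 and 15 bases before the start, and Drc1 carried 1 at 11 bases. Ccno, which rose, and Mcidas, which stayed near 0, both carried the motif shown, at 219 and 195 bases before the start. The half-site was thus present in windows of members with and without measurable RNA, the latter also including Deup1, Ccdc113 and Spag16.

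The dynein arm genes had the highest median change of the roles with more than 2 tested members, 5.04 on the log2 scale from NSPs to 72 h. All 8 rose over that time, where 28.1% of all genes did, and all 8 rose between 24 h and 72 h, where 12.2% did. Dnah9, an outer arm heavy chain, came early. It was at 1.21, 1.37 and 1.42 CPM in NSPs, at 33.1, 30.8 and 33.9 CPM at 24 h, at 108.6, 83.6 and 81.1 CPM at 72 h and at 60.6, 76.4 and 58.0 CPM at 1 week. The rise at 24 h was 24.3-fold (log2 4.60, SE 0.36, adjusted p = 1.22e-08), and no NSP library came near any 24 h library. Dnah5, the outer arm heavy chain that is often mutated in primary ciliary dyskinesia, went from 0.44 to 0.97 CPM in NSPs to between 6.42 and 8.60 CPM at 24 h and between 30.8 and 41.7 CPM at 72 h, a log2 rise of 2.29 (SE 0.41, adjusted p = 0.000404) over the last step. Dnah11, a further outer arm chain, reached 24.3, 24.3 and 18.3 CPM at 72 h from 5.59 to 7.32 CPM at 24 h.

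Dnah6, an inner arm heavy chain, came late and fell again. It was at 0, 0 and 0.11 CPM in NSPs, at 0.08, 0.17 and 0.08 CPM at 24 h, at 23.8, 31.8 and 18.8 CPM at 72 h and at 2.07, 2.13 and 2.60 CPM at 1 week. With 5 counts at 24 h and 1175 at 72 h the ratio was 213.9 (95% counting interval 91.4 to 659.9, edgeR adjusted p = 6.854e-07). The 72 h libraries lay far above those of every other untreated condition, and the 1 week libraries lay between 24 h and 72 h. Dnah2 and Dnah12, both inner arm chains, rose by 2.47 (SE 0.30) and 3.18 (SE 0.36) on the log2 scale from 24 h to 72 h, to 14.0 to 26.1 CPM and 7.48 to 10.1 CPM. Dnah10, another inner arm chain, rose least, by 1.11 (log2, SE 0.35, adjusted p = 0.0244), to 2.36 to 3.92 CPM, a call lost in 3 alternatives. Dnali1, an inner arm light intermediate chain, rose by 2.74 (log2, SE 0.23) to 14.8, 17.9 and 16.7 CPM. Part of the exons of Dnah2, Dnah6, Dnah9, Dnah10, Dnah11 and Dnali1 is covered by a gene on the opposite strand, between 43 bases for Dnali1 and 642 bases for Dnah11. The libraries keep strand, but the strand setting of the counting is not given in the sources used here, so reads there cannot be told apart.

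The dynein assembly factors changed less. Zmynd10, which acts with chaperones on dynein heavy chains, was at 0.63, 0.55 and 0.45 CPM in NSPs, at 1.06, 0.89 and 1.14 CPM at 24 h and at 3.70, 5.09 and 5.50 CPM at 72 h, and rose at both steps (log2 0.90, adjusted p = 0.0311 for the first, and 2.22, SE 0.28, adjusted p = 1.173e-05 for the second). The first of these calls was lost in 6 alternatives, among them DESeq2 (adjusted p = 0.0877). Dnaaf3 was between 0.90 and 1.13 CPM at 24 h, inside the NSP range of 0.57 to 1.37 CPM, and rose only afterwards, by 1.71 (log2, SE 0.35, adjusted p = 0.00135), to between 3.02 and 3.86 CPM. It shares 86 exonic bases with Tnni3 on its own strand. Dnaaf1 did not pass the test at any step. Its log2 difference from 24 h to 72 h was 0.97 (SE 0.50, adjusted p = 0.171), its libraries stayed between 0.15 and 0.80 CPM in all conditions, and 584 of its exonic bases overlap Taf1c on the other strand.

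All 4 tested members of the 96-nm ruler and nexin-dynein regulatory complex rose at both steps, where 27.2% and 12.2% of all genes rose. Ccdc39 and Ccdc40, which together set the spacing of dyneins and spokes along the doublet, did so in different proportion. Ccdc39 was at 8.94, 14.8 and 13.1 CPM in NSPs, at 30.1, 30.8 and 30.1 CPM at 24 h and at 76.6, 78.1 and 81.5 CPM at 72 h. Ccdc40 was at 2.60, 2.91 and 2.67 CPM in NSPs, at 6.79, 5.53 and 6.51 CPM at 24 h and at 59.5, 65.2 and 65.4 CPM at 72 h. Per kilobase of exon Ccdc39 was at 1.65 CPM and Ccdc40 at 0.452 CPM in NSPs, and at 72 h they were at 10.6 CPM (SD 0.34, n = 3) and 10.5 CPM (SD 0.55, n = 3). Ccdc39 shares 1256 exonic bases with Ttc14 on the other strand, and Ccdc40 none. Drc1 and Ccdc65, subunits of the regulatory complex, rose by 3.03 (SE 0.45) and 1.33 (SE 0.26) from 24 h to 72 h, to 15.5, 17.96 and 16.7 CPM and to 6.05 to 7.92 CPM. Ccdc113, a protein of the same region of the doublet, had 18 counts in the 18 libraries.

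The radial spoke genes rose in the first 24 h in 4 of 4 cases, where 27.2% of all genes rose. From 24 h to 72 h 3 of 4 rose, where 12.2% of all genes did. The call of Rsph1 in the first 24 h was lost in 6 alternatives, among them DESeq2 (adjusted p = 0.06) and the replicate block (edgeR adjusted p = 0.0508). Rsph4a, a spoke head protein, was at 0.38, 0.88 and 0.85 CPM in NSPs, at 4.15, 2.96 and 3.82 CPM at 24 h, at 24.3, 30.9 and 31.8 CPM at 72 h and at 18.5, 14.9 and 20.3 CPM at 1 week. Its rise from 24 h to 72 h was 3.00 on the log2 scale (SE 0.35, adjusted p = 6.176e-06). Rsph1 and Cfap61 each rose by 2.39 over that step (log2, SE 0.34 and 0.29), to 3.10 to 5.39 CPM and 7.6 to 8.39 CPM. Rsph9, another head protein, was instead at 7.47, 8.66 and 7.41 CPM at 24 h and 9.90, 10.5 and 12.2 CPM at 72 h, and the log2 difference of 0.47 (SE 0.23, adjusted p = 0.147) was not called.

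The central pair genes split into measurable members and members near 0. Spef2, an adaptor of the central pair projection, was at 0.25, 0.33 and 0.28 CPM in NSPs, at 1.51, 1.06 and 1.87 CPM at 24 h and at 13.2, 11.8 and 11.2 CPM at 72 h, 8.23-fold above 24 h (log2 3.04, SE 0.36, adjusted p = 5.628e-06). Cfap46, Cfap54 and Cfap69, which build projections of the central pair, rose by 2.04 (SE 0.26), 1.36 (SE 0.23) and 1.58 (SE 0.26) from 24 h to 72 h and were then at 26.1 to 36.6, 30.1 to 42.3 and 43.1 to 50.6 CPM. Spag16 and Spag17, 2 core proteins of the same structure, had 13 and 6 counts in all 18 libraries, and Cfap70 had 63 with at most 0.45 CPM in a library.

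Hydin, a very large central pair protein, ran opposite to the others at the first step. It was at 8.31, 5.32 and 5.40 CPM in NSPs, at 0.23, 0 and 0.08 CPM at 24 h, at 2.19, 2.02 and 0.99 CPM at 72 h and at 0.84, 0.88 and 0.49 CPM at 1 week. Every serum library was below every NSP library. With 323 counts in NSPs and 4 at 24 h the ratio was 68.0 in favour of NSPs (95% counting interval 26.3 to 251.0, edgeR adjusted p = 2.304e-07), and with 80 counts at 72 h it was 18.2 in favour of 72 h over 24 h (interval 6.84 to 68.4, adjusted p = 0.00018). It was the single member that fell at each time against NSPs. Gm26832 overlaps 237 of its 18037 exonic bases on the other strand.

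Of the 8 tested tether and inner microtubule proteins, 2 rose in the first 24 h, a share near the 27.2% of all genes, and 7 from 24 h to 72 h, where 12.2% of all genes rose. Cfap44, part of the tether that holds the inner arm motor heads, was at 2.47, 3.24 and 4.60 CPM in NSPs, at 27.3, 23.01 and 27.7 CPM at 24 h, at 181.8, 149.9 and 115.7 CPM at 72 h and at 119.7, 155.3 and 121.6 CPM at 1 week. At 72 h it was 43.1-fold above NSPs, and per kilobase of exon it was the most abundant structural member, at 17.7 CPM (SD 3.93, n = 3). Its tether partner Cfap43 behaved differently, with 14.4, 14.0 and 17.5 CPM in NSPs, 14.2, 15.1 and 13.6 CPM at 24 h, and 22.7, 24.0 and 18.8 CPM at 72 h (log2 0.61, SE 0.16, adjusted p = 0.00822 from 24 h). Per kilobase of exon it was at 2.17 CPM (SD 0.27, n = 3) in NSPs, where Cfap44 was at 0.41 CPM (SD 0.13, n = 3).

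Cfap52, a protein inside the doublet, was at 0.38, 0.11 and 0.28 CPM in NSPs and 0.60, 0.34 and 0.33 CPM at 24 h, which overlap, and then at 7.33, 8.64 and 11.8 CPM at 72 h, a 21.9-fold rise (log2 4.45, SE 0.34, adjusted p = 6.513e-08). Cfap126 rose by 2.06 over the same step (log2, SE 0.29) to 5.06 to 5.88 CPM, and Cfap53 by 1.66 (SE 0.51, adjusted p = 0.0222, lost in 4 alternatives) to 0.74 to 1.06 CPM. The tektins, filament proteins of the doublet wall, stayed low. Tekt1 and Tekt4 rose by 3.39 (SE 0.81, adjusted p = 0.00451) and 2.94 (SE 0.55, adjusted p = 0.00064), to 0.53 to 1.29 CPM and 0.83 to 2.20 CPM, Tekt1 from 4 counts to 51. Tekt2 was at 0.34 to 0.82 CPM in NSPs, 1.06 to 1.47 CPM at 24 h and 0.55 to 1.06 CPM at 72 h, rose in the first step (log2 1.09, SE 0.38, adjusted p = 0.0239, lost in 5 alternatives, among them DESeq2 with 0.0541) and was not called in the second (-0.69, SE 0.38, adjusted p = 0.198). Cfap45 had 37 counts in 18 libraries, 16 of them with TNF at 72 h.

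Of the other ciliary genes, Ccdc153, whose product lies in the nexin-dynein region, was at 0.63, 0.55 and 0.45 CPM in NSPs, at 2.19, 2.40 and 1.87 CPM at 24 h, at 8.31, 9.62 and 10.1 CPM at 72 h and at 11.1, 8.70 and 9.43 CPM at 1 week, and rose at both of the first 2 steps. Stk33, a kinase, lay between 0.53 and 1.54 CPM in all 18 libraries and was not called in any comparison. Ak7, an adenylate kinase of motile cilia, had 21 of its 53 counts in NSPs and 4 at 72 h. Cfap65 had 17 of 40 at 72 h and none in NSPs, and DESeq2, run as an alternative, called it higher at 72 h than in NSPs (adjusted p = 0.00267). Tmem212, a membrane protein of ependymal cells, had 2 counts, both in 24 h TNF replicate 1. The 10 members below the filter included genes of centriole amplification, the central pair and the doublet rather than 1 role.

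**Figure D3:**
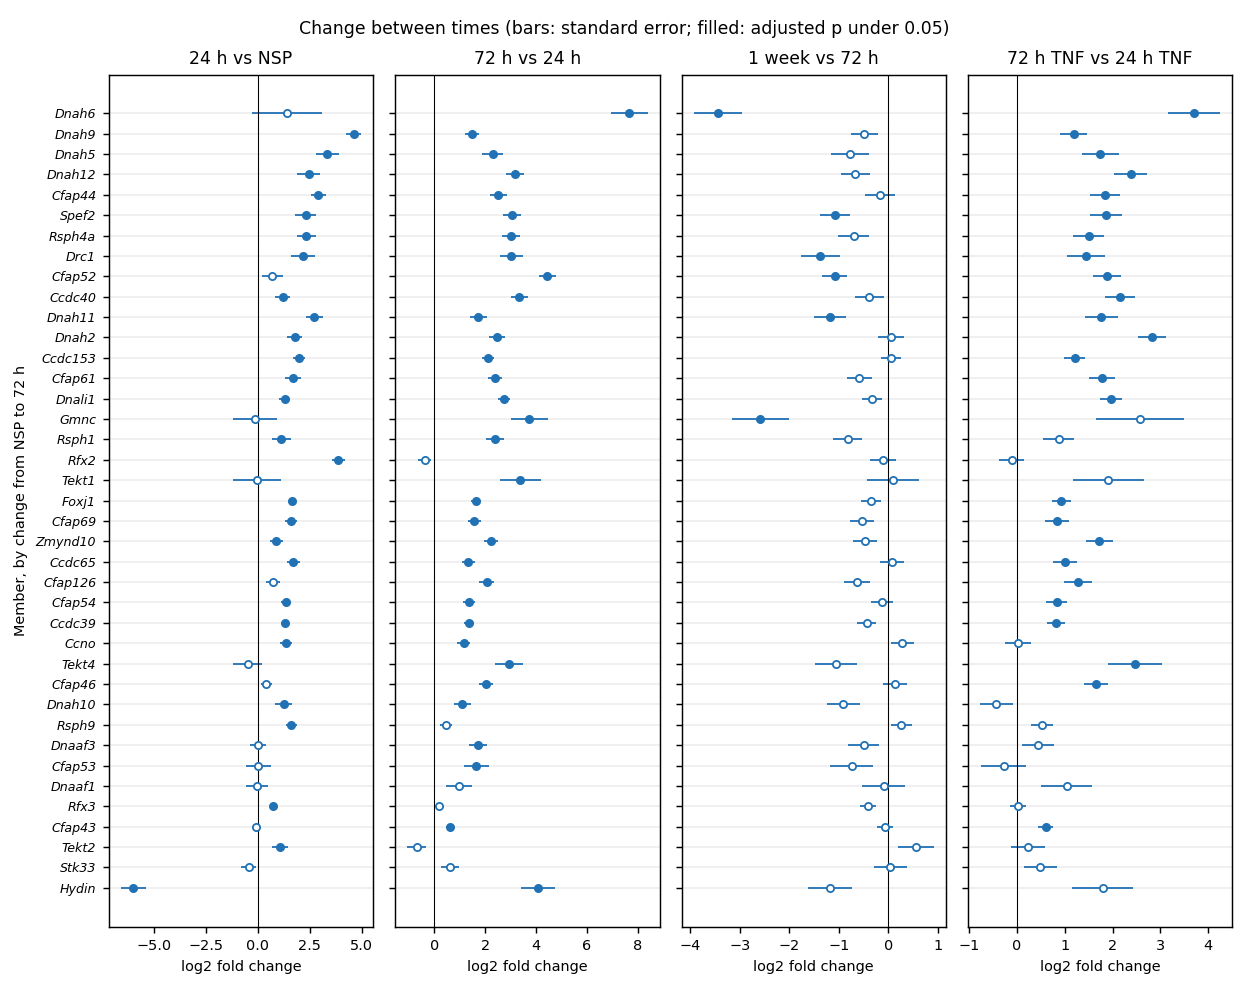
Log2 fold change with its standard error of the 39 tested members in 4 comparisons, ordered by the change from NSP to 72 h, with filled points for an adjusted p under 0.05. The points lie to the right of 0 in the first 2 panels apart from a few, among them Hydin at 24 h, and 30 of 39 lie to the left of 0 from 72 h to 1 week.

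The members differed in how large their log2 change at 24 h was beside that at 72 h. A share on the log2 scale is not the share of the CPM level reached. Foxj1, for example, had means of 27.8 CPM in NSPs, 86.7 CPM at 24 h and 270.6 CPM at 72 h. For the 35 members called higher at 72 h than in NSPs, the log2 change at 24 h was a median of 43.0% of the log2 change at 72 h, and 22 of them were under 50%. Rfx2 (111.0%), Rfx3 (81.1%), Rsph9 (77.5%) and Dnah9 (75.7%) stood at the early end, Foxj1 in the middle (50.0%), and Ccdc40 (26.3%), Dnah6 (15.4%), Cfap52 (13.6%), Cfap53 (1.49%), Dnaaf3 (1.27%), Tekt1 (-1.38%), Gmnc (-3.66%), Cfap43 (-18.6%) and Tekt4 (-19.4%) at the late end. These shares are descriptions from 2 comparisons that use the same NSP libraries.

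From 72 h to 1 week, 0 members rose and 6 fell, in a comparison where 2.68% of all genes rose and 3.96% fell. The median over tested members was -0.48 (log2), beside 0 over all genes. Dnah6 fell by 3.45 (log2, SE 0.48, adjusted p = 0.000231), and Gmnc, which passed the filter through 72 h alone, was 2.59 lower on that scale (-2.59, adjusted p without a filter 0.000939), with 9 counts over the 1 week libraries. Drc1 fell by 1.38 (adjusted p = 0.0416), Dnah11 by 1.18 (adjusted p = 0.0358), Cfap52 by 1.08 (adjusted p = 0.0139) and Spef2 by 1.08 (adjusted p = 0.0409). For each of the 6 genes the 3 libraries at 1 week were all below the 3 at 72 h, for example at 2.07 to 2.60 CPM for Dnah6, 8.44 to 11.9 CPM for Dnah11 and 6.12 to 6.57 CPM for Drc1. The 6 were picked by their calls in the same libraries, so this separation only describes them. Leaving out any 1 of the 6 libraries left between 1 and 3 of the calls. Dnah6 was called each time, with adjusted p between 0.000591 and 0.00349, whereas Drc1, Spef2 and Dnah11 were lost whichever library was left out. With the replicate number as a block, Drc1 (adjusted p = 0.0546) and Spef2 (0.0551) were not called.

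Members rose under TNF as well. From 24 h TNF to 72 h TNF, 25 rose and 0 fell, where 5.38% of all genes rose and 7.93% fell, with a median of 1.27 (log2) beside 0.01 over all genes. Fitting only these groups left 15 calls, and 13 of the 25 were called under every alternative. Dnah6 rose by 3.71 (log2, SE 0.55, adjusted p = 0.000259), Dnah2 by 2.83 (SE 0.30, adjusted p = 1.059e-05) and Ccdc40 by 2.15 (SE 0.32, adjusted p = 0.000237). Ccno showed a difference of 0.02 (log2, SE 0.27, adjusted p = 0.981) over this interval, with 1.13, 1.86 and 1.94 CPM at 24 h TNF and 1.91, 1.57 and 1.5 CPM at 72 h TNF. Without 24 h TNF replicate 1 the count was 29 and the median 1.55, and the rise was 6.58 (SE 0.50) for Dnah6, 3.37 (SE 0.31) for Dnah2 and 2.96 (SE 0.23) for Ccdc40. Against NSPs, 30 members rose and 1 fell at 24 h TNF, where 28.2% and 26.3% of all genes did, and 34 rose and 1 fell at 72 h TNF, where 31.7% and 30.1% did. Without 24 h TNF replicate 1 the first of these comparisons called 26 members in either direction.

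TNF at 24 h raised 2 members and lowered 0 against untreated cells of the same time, in a comparison where 2.18% of all genes rose and 1.32% fell. Cfap52 was at 1.76, 0.89 and 1.00 CPM with TNF and at 0.60, 0.34 and 0.33 CPM without it (log2 1.54, SE 0.39, adjusted p = 0.0323). Ccdc153 was at 5.98, 3.95 and 3.06 CPM with TNF and at 2.19, 2.40 and 1.87 CPM without it (log2 1.00, SE 0.24, adjusted p = 0.0211). The groups did not overlap for either gene, both of them picked by their calls in the same libraries. The median over tested members was 0.41 beside -0.01 over all genes. Much of that median came with 24 h TNF replicate 1. Dnah5 was at 22.0, 4.62 and 4.71 CPM in the 3 replicates with TNF, Cfap44 at 79.1, 27.3 and 24.3 CPM, Drc1 at 10.4, 2.46 and 2.53 CPM, Rsph4a at 14.5, 4.99 and 4.89 CPM and Dnah6 at 2.01, 0.07 and 0.12 CPM. Summed without Foxj1, Rfx2 and Rfx3 the members came to 373.5 CPM in that library and to 198.4 and 195.3 CPM in the other two, where untreated cells gave 191.0 to 207.2 CPM. Without it the median was -0.04, Cfap52 (log2 1.16, adjusted p = 0.190) and Ccdc153 (0.67, adjusted p = 0.153) were not called, and Dnah11 was lower with TNF (fell by 1.26, SE 0.27, adjusted p = 0.0145). Leaving out 24 h replicate 2 or 3 also ended both calls, and leaving out 24 h replicate 1 ended that of Ccdc153 (adjusted p = 0.0811). With the replicate block Cfap52 was not called (adjusted p = 0.0503).

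TNF at 72 h raised 0 members and lowered 4, where 4.35% of all genes rose and 5.21% fell. Ccno was at 1.91, 1.57 and 1.5 CPM with TNF and at 3.93, 5.45 and 5.66 CPM without it, 3.02-fold lower (log2 -1.59, SE 0.25, adjusted p = 0.000315). Cfap52 was at 4.16, 5.16 and 4.37 CPM with TNF and at 7.33, 8.64 and 11.8 CPM without it (log2 -1.02, SE 0.26, adjusted p = 0.0157). Gmnc was at 0.28, 0.17 and 0.44 CPM with TNF and at 0.91, 1.29 and 0.88 CPM without it (log2 -1.77), and its count among the 4 was favoured by the filter, which it passed through the untreated libraries compared here. Without a filter the adjusted p was 0.0262, and in all the call was lost in 8 alternatives. Dnah9 was at 19.6, 63.4 and 65.4 CPM with TNF and at 108.6, 83.6 and 81.1 CPM without it (log2 -0.88, SE 0.27, adjusted p = 0.0494), a call lost in 7 alternatives. In all 4 genes every library with TNF was below every library without it, but these genes were picked by their calls in the same libraries. The share of all genes without such overlap was not computed. Foxj1 had a log2 difference of -0.31 (SE 0.20, adjusted p = 0.361), with 210.8, 187.6 and 258.1 CPM, and its groups overlapped. The median over tested members was -0.37 beside -0.01 over all genes, and 30 of 39 differences were below 0.

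Ccno was called in each repeat that left out 1 library, with adjusted p between 0.000288 and 0.00291. Without 72 h TNF replicate 1 it was the single call, with Cfap52 at an adjusted p of 0.0573, Dnah9 at 0.0536 (log2 -0.50) and Gmnc at 0.119. Without 72 h replicate 3 Ccno was again the single call, with Cfap52 at 0.113, and without 72 h replicate 2 or 72 h TNF replicate 3 there were 2 calls. That first TNF replicate was low for Spef2 as well, at 3.04 CPM against 10.1 and 9.69 CPM, and for Ccdc40, at 27.1 CPM against 47.2 and 51.2 CPM. With the replicate block Gmnc was not called (adjusted p = 0.0613). With both first TNF replicates left out, a choice made after seeing the data, Ccno, Cfap52, Dnah6 and Dnah9 were lower at 72 h.

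**Figure D4:**
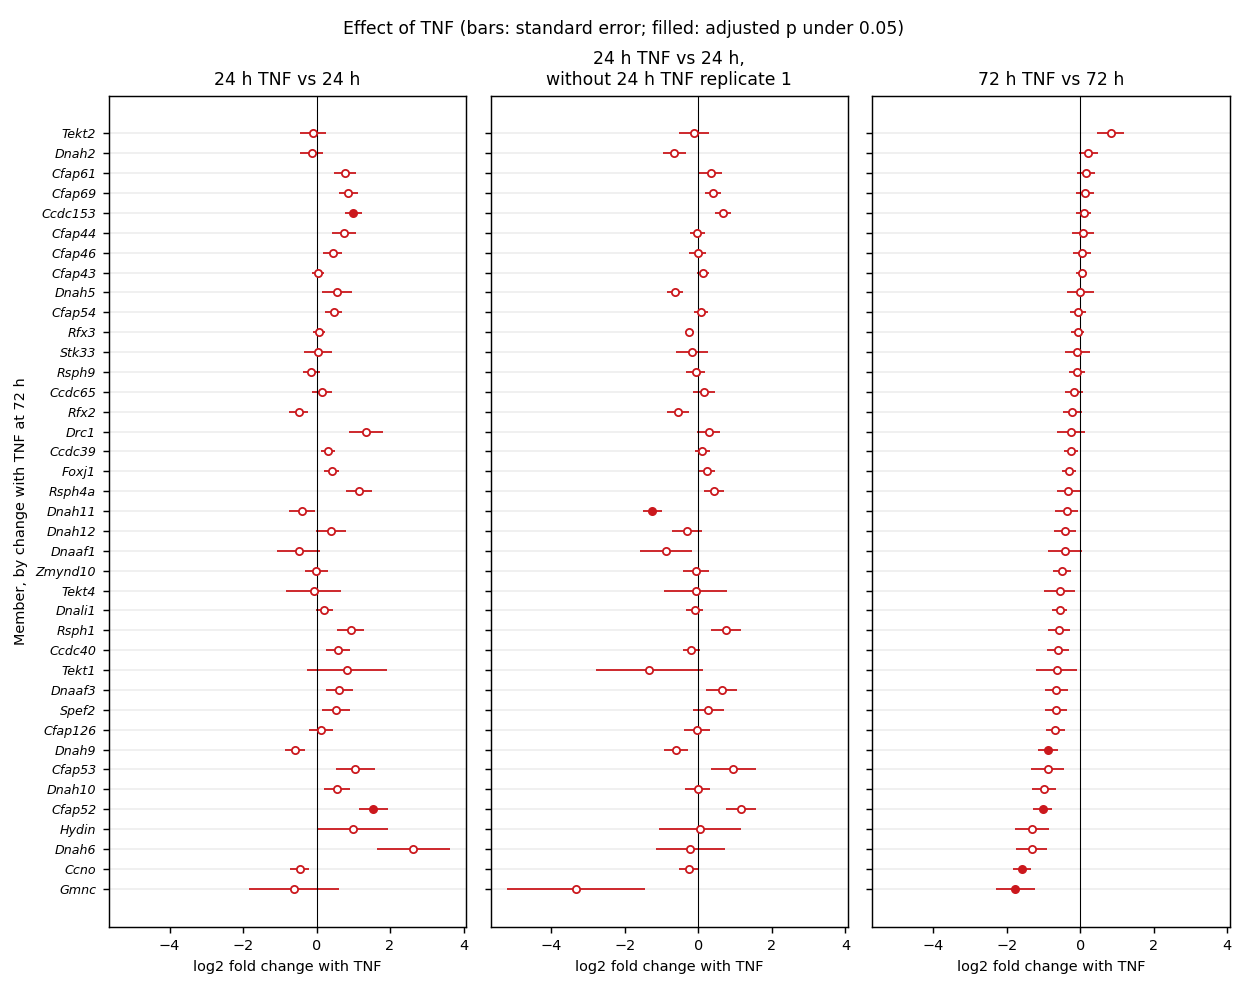
Log2 fold change with TNF and its standard error for the 39 tested members, at 24 h with all libraries, at 24 h without 24 h TNF replicate 1, and at 72 h, with filled points for an adjusted p under 0.05. At 24 h most points move left once that library is left out, and at 72 h Ccno, Gmnc, Cfap52 and Dnah9 are filled and below 0.

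The difference between the 2 TNF effects was tested as an interaction term, and 0 members were higher and 1 was lower, where 0.135% and 0.324% of all genes were. For Cfap52 the effect at 72 h was 2.56 lower on the log2 scale than that at 24 h (-2.56, SE 0.46, adjusted p = 0.019). Without 24 h TNF replicate 1 it was -2.17 (adjusted p = 0.0515), and it was also not called without 24 h replicate 2 (0.0682), 24 h replicate 3 (0.0755) or 72 h replicate 3 (0.0556). For Ccno the interaction was -1.14 (SE 0.36, adjusted p = 0.234), so that a difference between its TNF effects at the 2 times was not shown. The TNF effect at 72 h and the change from 72 h to 1 week both use the 3 untreated 72 h libraries, and Cfap52 and Gmnc were lower than these in both.

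Other ciliary genes were counted in lists by function, to be read beside the 12.2% of all genes that rose and 12.6% that fell from 24 h to 72 h, and the 4.35% and 5.21% that did so with TNF at 72 h. Of 66 tested axonemal and assembly genes outside the 49, 49 rose and 1 fell from 24 h to 72 h (median log2 1.41), and 1 rose and 7 fell with TNF at 72 h (median -0.32). Drc7, a subunit of the nexin-dynein complex, rose by 4.92 (SE 0.56, adjusted p = 8.098e-06) from 24 h to 72 h, and Wdr63, an inner arm intermediate chain, and Ak9 rose by 4.55 and 4.12. With TNF at 72 h Fam216b fell by 2.26 (SE 0.40, adjusted p = 0.00104), from a mean of 10.5 to 2.19 CPM, the inner arm chain Dnah1 fell from 8.86 to 4.18 CPM (adjusted p = 0.00161), and Mns1, an inner microtubule protein, fell from 33.2 to 15.8 CPM (adjusted p = 0.0192).

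The genes shared with primary, non-motile cilia moved less. Of 26 intraflagellar transport genes, which carry cargo along every cilium, 10 rose and 0 fell from 24 h to 72 h with a median of 0.33 (log2), led by Ift22 (1.11), Kif17 (1.1) and Dync2li1 (1.00), and 0 were called with TNF at 72 h. Of 30 BBSome and transition zone genes, which gate the ciliary membrane, 21 rose and 1 fell with a median of 0.54, led by Bbs12 (1.36), Tmem107 (1.22) and Bbs5 (1.05), and Tctn2 was lower with TNF at 72 h (-0.65, adjusted p = 0.00403). Among 18 further genes of multiciliation and ciliary transcription, 4 rose and 3 fell from 24 h to 72 h with a median of 0.01, not far from the shares over all genes. Against NSPs this list ran lower, with 0 higher and 12 lower at 24 h (median -0.58), 1 and 9 at 72 h (-0.51) and 2 and 11 at 1 week, where 25.5%, 27.2% and 29.1% of all genes fell. The 3 that fell from 24 h to 72 h were Myb (-3.08, adjusted p = 0.000162), a factor of proliferating progenitors that also acts in multiciliation, Stil (-1.92), which acts in centriole duplication, and Gmnn (-1.35), the licensing inhibitor geminin. Ccp110, a cap protein of centrioles, was higher with TNF at 72 h (0.52, adjusted p = 0.0328).

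Markers of other cells of the ventricle wall moved in the same samples. Ependymal markers outside the axoneme (6 genes) summed to 148.2 to 189.5 CPM in NSPs, 84.6 to 107.4 CPM at 24 h, 263.4 to 372.3 CPM at 72 h, 120.1, 217.7 and 194.6 CPM with TNF at 72 h, lowest in the first replicate, and 212.7 to 245.6 CPM at 1 week. From 24 h to 72 h 5 of the 6 rose and 0 fell (median log2 1.69), and with TNF at 72 h 0 rose and 3 fell (median -0.78), beside the shares over all genes given for the ciliary lists. In the interaction 2 of the 6 were lower, where 0.324% of all genes were. With TNF at 72 h astrocyte markers (9 genes) had 0 called higher and 3 lower (median -0.83), with sums of 3529 to 4917 CPM beside 5809 to 7938 CPM, and from 72 h to 1 week 1 rose and 5 fell (median -1.19). All 6 ependymal markers had a mean of at least 1 CPM at 72 h and 3 did in NSPs. Most of the ependymal sum was Cd24a in NSPs, at 111.6 to 178.3 CPM, and Tm4sf1 at 72 h, at 188.5 to 263.3 CPM, whereas Rarres2 and Mia, abundant in ependyma, reached 1.59 to 2.04 and 1.97 to 2.75 CPM. With TNF at 24 h the first replicate, which stood apart for the cilium genes, had an ependymal sum of 154.9 CPM beside 144.2 and 135.9 CPM. Its astrocyte markers (9 genes) summed to 6009 CPM beside 4465 and 4462 CPM, and its neural stem cell, oligodendrocyte lineage and neuron markers (6 genes each) were lower, at 1950 beside 3556 and 3205 CPM, 115.1 beside 231.0 and 301.7 CPM, and 28.7 beside 48.1 and 60.3 CPM. Choroid plexus markers (8 genes) summed to 2.35 to 4.26 CPM in NSPs, 19.4 to 29.8 CPM at 72 h and 8.72, 15.7 and 16.3 CPM with TNF at 72 h, most of it Folr1 and Otx2, but Clic6 was at 0 in all 3 libraries of each of these conditions and Ttr, the defining secreted protein of that epithelium, stayed at or below 0.38 CPM at 72 h. Neural stem cell markers (6 genes) went from 4964 to 6455 CPM in NSPs to 1652 to 2191 CPM at 72 h. The part of any of these cell types in the cilium results was not tested.

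Over the 18 libraries, the members closest to the mean course of all tested members were Dnah12 (Pearson r = 0.99), Rsph4a (0.98), Cfap61 (0.98) and Ccdc40 (0.98), and the least like it were Stk33 (0.46), Tekt2 (0.29) and Hydin (-0.15). Of genes in none of the lists, the 10 most like that mean course had r from 0.98 to 0.99. They were Nek11, Maats1, Atp7b, Saxo2, Dnajb13, Pltp, Ccdc190, Casc1, 2900011O08Rik and Ubxn11. Dnajb13, a radial spoke protein, went from a mean of 0.11 CPM in NSPs to 22.99 CPM at 72 h, and Atp7b, a copper transporter, from 7.29 to 142.4 CPM. These correlations are descriptions over libraries that share conditions and depth, and each member contributes to the mean it is compared with.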

How the data were processed

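Total RNA was depleted of ribosomal RNA and sequenced as stranded libraries. The authors deposited raw read counts per gene, made per the labels with Trim Galore, FastQC, STAR, SAMtools and featureCounts on mm10, whose versions are not given in the sources used here. Gene IDs were matched to GENCODE M21, in which 54809 of 54838 were found. Samples were grouped by their labels. The one column numbered 4 was taken as 72 h replicate 3 because it shares the library code of that sample. The members and all gene lists were chosen with earlier results of these data known. Genes were kept by filterByExpr, which left 20067, counts were scaled by TMM, and 1 mean per condition was fitted over all 18 libraries with edgeR 4.0.16 (R 4.3.3, limma 3.58.1, quasi-likelihood test, Benjamini-Hochberg over all genes tested, called at an adjusted p under 0.05). Biological variation was 0.18 as a coefficient. Levels are CPM. Counting intervals are exact at 95%, treat the summed counts of a condition as 1 sample and, like the floor of 3 counts, cover counting error only. Every member was accounted for, and those with a mean of at least 1 CPM in some condition are given with values. From the other ciliary lists the genes with the largest called changes were named, up to 3 per comparison, and 10 unlisted genes by correlation.

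The alternatives were DESeq2 1.42.0, RLE factors, 2 other filters, fits of only the groups compared, a replicate block, a fold limit and leaving out each library. In the pairing check, the deviations of same-numbered libraries correlated with r from 0.255 to 0.291 between 24 h TNF and 72 h TNF and from 0.0525 to 0.219 between NSPs and 72 h, and every other comparison had at least 1 pair with r below 0. The labels name no shared source. The block left 25 members called there, as without it. Replicates of a condition differed by more than counting error in each of 18 pairs, with a chi-square at least 4.08 times its degrees of freedom. On simulated counts for 72 h against 24 h over 19469 genes, edgeR recovered 64 of 100 genes changed 2-fold and 93 of 100 changed 4-fold, with 4 unchanged genes among 161 calls. DESeq2, over 20067 genes, recovered 61 and 86, with 16 unchanged genes among 163 calls. Figures were drawn with matplotlib 3.10.9.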

Additional observations from a re-analysis of the deposited data

Results flagged for a closer look

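The effect of TNF on Cfap52, a protein inside the doublet microtubules, differed between 24 h and 72 h by the interaction term (-2.56 on the log2 scale, SE 0.46, edgeR adjusted p = 0.019). All 3 libraries with TNF lay above the untreated ones at 24 h (adjusted p = 0.0323) and below them at 72 h (adjusted p = 0.0157). The call at 24 h and that of the interaction were each lost in 6 alternatives, and the call at 72 h in 4. For the interaction these were leaving out 24 h TNF replicate 1 (-2.17, adjusted p = 0.0515), 24 h replicate 2 (0.0682), 24 h replicate 3 (0.0755), 72 h replicate 3 (0.0556) or both first TNF replicates (0.053), and the replicate block with 72 h replicate 3 unpaired (0.102). With 3 libraries per condition no formal test for an outlying library was run.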

How the results depend on the processing

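Over the members called in each comparison, 3021 values were recomputed under alternatives. Of these, 2839 kept their direction and their call, 182 lost the call and 0 reversed, and 192 of 235 member calls held under every setting that tested them. Requiring 10 counts in every library removed most members before testing and left 14, 16, 16, 13, 1, 0, 1, 12, 15, 16 and 0 calls, in the order 24 h, 72 h and 1 week against NSPs, 72 h against 24 h, 1 week against 72 h, TNF at 24 h, TNF at 72 h, 72 h TNF against 24 h TNF, 24 h TNF and 72 h TNF against NSPs, and the interaction. With no filter there were 8 calls for TNF at 24 h, 7 for TNF at 72 h and 5 for the interaction. Fitting only the groups compared gave 13 calls from 72 h to 1 week, 1 for TNF at 24 h and 15 from 24 h TNF to 72 h TNF. DESeq2 gave 5 calls for TNF at 24 h, and a fold limit of 2 (log2 of at least 1) gave 1. With the replicate block there was 1 call for TNF at 24 h, Ccdc153, and with 72 h replicate 3 unpaired there were 2 from 72 h to 1 week, 1 for TNF at 72 h and 0 for the interaction. The block ended 1 further call not given with the comparisons, that of Rsph1 at 24 h. At 24 h against NSPs the calls of Rsph1 and Zmynd10 were each lost in 6 alternatives, that of Tekt2 in 5 and that of Dnah10 in 3. From 24 h to 72 h that of Cfap53 was lost in 4 and that of Dnah10 in 3. With both first TNF replicates left out the interaction had 0 calls. The cause of these differences was not tested, apart from the smaller number of members tested under the stricter filter.

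Leaving out 1 library at a time gave 24 to 27 calls for 24 h against NSPs, 35 or 36 for 72 h, 32 to 35 for 1 week, 31 to 33 for 72 h against 24 h, 1 to 3 for 1 week against 72 h, 0 to 5 for TNF at 24 h, 1 to 3 for TNF at 72 h, 19 to 29 for 72 h TNF against 24 h TNF, 26 to 29 and 33 to 36 for 24 h TNF and 72 h TNF against NSPs, and 0 to 2 for the interaction. RLE factors left each count as it was. Genes under about 1 CPM rest on few reads, and the 10 members below the filter were not tested in the reported fit. Of these 10, DESeq2 called Cfap65 higher than in NSPs at 72 h (adjusted p = 0.00267), 24 h TNF (0.041) and 72 h TNF (0.0219). With no filter edgeR called it there and from 24 h to 72 h, and called Ak7 lower at 72 h than in NSPs (0.0255).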
